A study of Homo sapiens with 20 samples.

Results

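The 9 genes described here (MDM2, MDM4, CDKN1A, FAS, BAX, SESN1, TP53INP1, XPC and FDXR) belong to the p53 pathway, and were chosen by name because loss of the U3 small nucleolar RNA disturbs ribosome production and HepG2 cells carry wild-type p53. Every skipped exon event and every row of the RNA immunoprecipitation (RIP) table with one of these gene symbols was taken. This gave 18 of 19792 events after depletion of FUBP1, 43 of 32990 after depletion of U3, 11 of 7065 after depletion of FBL, and 9 of 28278 genes in the RIP table.

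The p53 protein is a transcription factor that is held at a low level by MDM2, a ubiquitin ligase that marks it for degradation, and by the related protein MDM4, which binds and blocks it. When ribosome production in the nucleolus is disturbed, free ribosomal proteins such as RPL5 and RPL11 can bind MDM2, so that p53 is no longer degraded. It then raises transcription of genes for cell cycle arrest (CDKN1A, the inhibitor p21), cell death (FAS, a death receptor; BAX, which opens the mitochondrial membrane; TP53INP1, a cofactor of the p53 death response), metabolism and redox balance (FDXR, a mitochondrial reductase; SESN1, a stress-induced regulator of growth signalling) and DNA repair (XPC, the damage sensor of nucleotide excision repair). MDM2 is itself a p53 target, which closes a feedback loop.

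HepG2 is a human liver cancer cell line. The labels place its libraries in 4 groups of 3 and 4 groups of 2. Polyadenylated RNA was sequenced 48 h after treatment with siFUBP1, an siRNA that depletes the nuclear RNA-binding protein FUBP1, or after the control siRNA siCtrl2, and 72 h after an antisense oligonucleotide (ASO) against U3 (U3 ASO) or against GFP (GFP ASO), with 3 biological replicates in each group. FUBP1 RIP and matching input RNA were sequenced 48 h after an siRNA against FBL, the methyltransferase fibrillarin (siFBL), or a control siRNA (siCtrl), with 2 biological replicates in each group. U3 is a box C/D RNA needed to cut the precursor of ribosomal RNA, and FBL is a protein of all box C/D particles, most of which guide 2′-O-methylation of ribosomal RNA. Each depletion rests on 1 siRNA or 1 ASO, and no library served in more than 1 of the 3 splicing comparisons.

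The libraries held 2693397 to 4474350 listed junction reads in the siFUBP1 comparison, 11249641 to 13321799 in the U3 comparison and 910779 to 1142189 in the siFBL comparison. The U3 libraries were the deepest, although MDM4 held 92 to 173 reads per library there and 104 to 280 in the siFUBP1 comparison. FUBP1 itself was read at 45.2, 56.1 and 50.3 JPM (junction reads per 1000000 listed junction reads of the library) in the siCtrl2 libraries and at 8.42, 10.1 and 4.08 in the siFUBP1 libraries. In the U3 comparison FUBP1 was read at 59.9 ± 3.68 (SD, n = 3) in GFP ASO and 41.5 ± 2.53 in U3 ASO. FBL had no listed event, and U3, which is not polyadenylated, was not measured here. Of 9 hepatocyte markers 8 were read in every comparison, among them ALB, AFP and APOB. In the U3 comparison 6 of these 8 fell (TF, which encodes transferrin, from 7905 to 2497 JPM), while TTR rose; with the median-of-ratios scaling described below 7 fell and TTR was not called higher. Of 7 markers of blood, vessel and connective tissue cells only CD74 had enough junction reads to be tested. With scaling to all junction reads it was not called in any of the 3 comparisons. With median-of-ratios scaling CD74 was called lower in the U3 comparison (log2 change -0.23, limma adjusted p = 0.0741). The part of these markers in the results below was not tested.

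The sequences through which the U3 depletion and the genes are described are given first. The ASO against U3 had 20 bases, and capitals mark its 10 bases with a 2′-O-methyl group, 5 at each end.
U3 ASO: UCACCttcaccctctCCACU

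Promoter windows of 300 bases, running from upstream of each start site to just inside the gene, were taken from RefSeq (GRCh38.p14) and searched on both strands for the p53 consensus site, which is a pair of half-sites of 10 bases. The search allowed at most 13 bases between the half-sites and at most 2 mismatches, with the C and G at the core of each half-site kept; the half-site reads the same on both strands. The mismatch limit was chosen after the number of matches had been seen. Such a match stood in 1030 of 35116 windows (2.93%) and in 4 of the 16 windows of the members. These 4 windows belonged to MDM2, FAS and FDXR. The windows of SESN1 had at best 3 mismatches, those of CDKN1A and XPC 4, that of MDM4 5 and that of BAX 6, which says nothing of sites farther away. TP53INP1 had no window in the table. The matches are printed with 20 bases on each side, because junction reads of these 3 genes rose after U3 depletion, and capitals mark the half-sites.
MDM2, chr12:68808903-68808962, plus strand: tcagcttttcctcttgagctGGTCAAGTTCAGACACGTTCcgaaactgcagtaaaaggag
FAS, chr10:88991289-88991348, plus strand: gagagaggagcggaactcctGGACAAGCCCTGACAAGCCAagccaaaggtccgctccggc
FDXR, chr17:74872976-74873045, minus strand: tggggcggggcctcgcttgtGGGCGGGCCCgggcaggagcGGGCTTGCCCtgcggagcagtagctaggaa

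A pair of exons described in the splicing results, neither of them called, are given with 40 intron bases before and 12 after them, on hg38. Capitals mark the exon, which is preceded by ag and followed by gt in both genes. The MDM4 exon of 68 bases (exon 6 of the canonical transcript, coding) is the one whose inclusion separates full-length MDM4 from a short form, and the FDXR exon of 85 bases (exon 8, coding) had the smallest p-value of all member events. Loss of either exon shifts the reading frame.
MDM4 exon, chr1:204537390-204537509, plus strand: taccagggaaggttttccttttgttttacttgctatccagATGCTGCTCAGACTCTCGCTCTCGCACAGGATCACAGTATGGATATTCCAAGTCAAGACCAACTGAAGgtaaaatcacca
FDXR exon, chr17:74864468-74864604, minus strand: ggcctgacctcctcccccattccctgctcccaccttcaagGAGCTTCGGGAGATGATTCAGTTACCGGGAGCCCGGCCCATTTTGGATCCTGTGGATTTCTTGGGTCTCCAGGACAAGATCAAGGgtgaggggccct

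The first question was whether the amount of RNA read from these genes differed after U3 depletion. After 72 h, junction reads of MDM2, FAS, TP53INP1, FDXR and XPC were 2.16 to 4.88 times those of the GFP ASO libraries, whereas MDM4, CDKN1A and SESN1 did not pass the test. The measure is the sum of all inclusion and skipping reads of a gene's skipped exon events, per 1000000 such reads in the library (JPM), so a read that fits several events counts in each. Junctions of a gene that border no listed event are not part of it, and in bulk RNA more RNA per cell and more cells with the RNA cannot be told apart.

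MDM2 was read at 202, 268 and 232 JPM in the GFP ASO libraries and at 740, 707 and 735 in the U3 ASO libraries. The groups did not overlap, and the ratio of the means was 3.11 (log2 change 1.64 ± 0.08 SE, adjusted p = 8.44e-12 by limma). MDM4, the partner of MDM2 in restraining p53, was read at 8.18, 14.1 and 11.5 with GFP ASO and at 8.94, 9.32 and 9.31 with U3 ASO. The groups overlapped, and the log2 change of -0.25 ± 0.28 had an adjusted p of 0.502.

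FDXR rose from 93.5, 101 and 133 JPM to 407, 410 and 431, a ratio of 3.82 (log2 change 1.94 ± 0.10, limma adjusted p = 2.04e-11). All 3 U3 ASO libraries stood far above all 3 GFP ASO libraries. FAS was read at 26.5, 16.4 and 18.0 with GFP ASO and at 55.6, 65.3 and 58.3 with U3 ASO. Its ratio was 2.94 (log2 change 1.56 ± 0.18, limma adjusted p = 1.37e-06), without overlap. XPC was read at 24.9, 27.3 and 33.1 against 56.7, 62.0 and 65.7, also without overlap (ratio 2.16, log2 change 1.11 ± 0.15, limma adjusted p = 1.11e-05).

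TP53INP1 had few reads in the control, 7, 44 and 16 in the 3 GFP ASO libraries, against 106, 102 and 112 in the U3 ASO libraries. In JPM these were 0.622, 3.60 and 1.21 against 9.38, 8.73 and 8.41. The ratio of 4.88 therefore carries a wide error (log2 change 2.23 ± 0.47, limma adjusted p = 0.000767), although the groups did not overlap.

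BAX and SESN1 lay close to the shift shared by all genes. BAX was read at 114, 109 and 117 JPM with GFP ASO and at 136, 137 and 158 with U3 ASO, a ratio of 1.27 (log2 change 0.34 ± 0.10, limma adjusted p = 0.00732). The median log2 change over all 8192 genes tested was itself 0.26, so BAX moved by 0.079 beyond it. With median-of-ratios scaling, which divides each library by its median ratio to an average library and under which the median over all genes was 0.023, the log2 change of BAX was 0.096 (adjusted p = 0.486) and the call was lost. SESN1 was read at 27.4, 26.2 and 26.5 against 39.3, 34.9 and 25.2, with overlap (log2 change 0.28 ± 0.19, adjusted p = 0.235); without the third U3 ASO library its adjusted p was 0.0705.

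CDKN1A could hardly be read. Its 5 listed events all concern exons outside the canonical coding sequence, and they held 23, 11 and 7 reads with GFP ASO and 7, 76 and 22 with U3 ASO. The U3 ASO libraries spread over both sides of the control values (log2 change 0.73 ± 0.68, adjusted p = 0.408), so a change of the main CDKN1A transcript was not detectable with these reads.

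**Figure D1:**
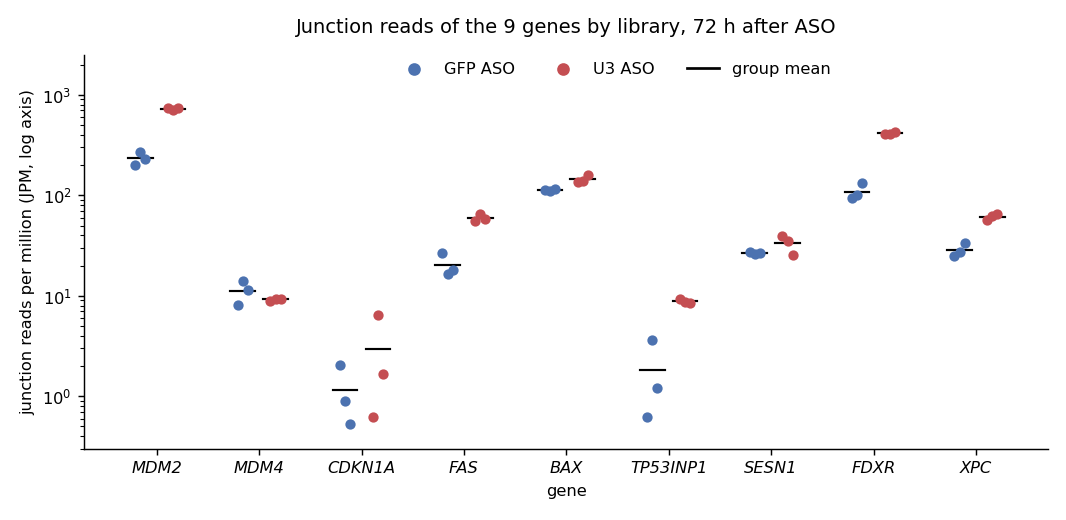
Junction reads per 1000000 (JPM, log axis) of the 9 genes in each of the 3 GFP ASO and 3 U3 ASO libraries; points are libraries and bars are group means. MDM2, FAS, TP53INP1, FDXR and XPC lie 2.16 to 4.88 times higher with U3 ASO, BAX lies 1.27 times higher, and MDM4, CDKN1A and SESN1 overlap between the groups.

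In total 6 of the 9 genes rose and none fell at an adjusted p under 0.1, where 38.0% of the 8192 genes tested rose and 10.7% fell. The median log2 change of the 9 genes was 1.11 beside 0.26 over all genes. With median-of-ratios scaling 5 of the 9 rose, and over all genes 1564 rose and 1646 fell in place of 3110 and 877. The log2 changes of the same 5 genes were then 1.40 for MDM2, 1.32 for FAS, 2.02 for TP53INP1, 1.70 for FDXR and 0.86 for XPC.

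A wider list of 27 p53 targets, none of them among the 9 genes, moved the same way. In the U3 comparison 16 of the 27 had a tested gene total, of which 14 rose and none fell; the other 11 had no listed event. Their median log2 change was 0.99. The largest was that of TP53I3, a quinone oxidoreductase, which was read at 64.0, 46.7 and 62.5 JPM with GFP ASO and at 272, 263 and 254 with U3 ASO (ratio 4.55, log2 change 2.19 ± 0.11). Genes for cell death and growth arrest followed, with ratios of 3.49 for BBC3 (the death protein PUMA) and 3.45 for PLK3 (a stress-activated kinase). RRM2B, the p53-induced subunit of ribonucleotide reductase, had a ratio of 2.66, and TIGAR, a regulator of glycolysis, 2.59.

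The remaining called targets had smaller ratios. They were 2.32 for ZMAT3, 2.20 for SPATA18, 2.19 for PHLDA3, 1.85 for POLH, 1.64 for NINJ1, 1.63 for DRAM1, 1.62 for DDB2, 1.51 for TNFRSF10B and 1.43 for CCNG1. The last of these did not pass with median-of-ratios scaling (adjusted p = 0.131), which left 13 called. PPM1D (log2 change 0.40 ± 0.23) and APAF1 (-0.37 ± 0.41) did not pass in either case.

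Genes that control p53 or are read out from the nucleolus showed another pattern. Of 15 such genes 11 were tested, 3 rose and 6 fell, with a median log2 change of -0.19. The ribosomal protein genes fell together: RPL5 from 2585 to 1815 JPM (log2 change -0.51 ± 0.05), RPL26 from 1791 to 1267 (-0.50 ± 0.05), RPL23 from 1318 to 937 (-0.49 ± 0.05) and RPL11 from 613 to 478 (-0.36 ± 0.06). NPM1 (-0.21 ± 0.05) and NCL (-0.19 ± 0.05), abundant nucleolar proteins, also fell. PML, a nuclear body protein, rose from 23.5 to 47.4 (0.98 ± 0.20), while HUWE1 (0.31 ± 0.06) and USP7 (0.15 ± 0.06), which act on the ubiquitin of p53 and MDM2, passed only with scaling to all junction reads. With median-of-ratios scaling PML alone rose and 8 of the 11 fell, NOP53 and USP10 being added to the 6, and the log2 change of USP7 turned to -0.097.

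**Figure D2:**
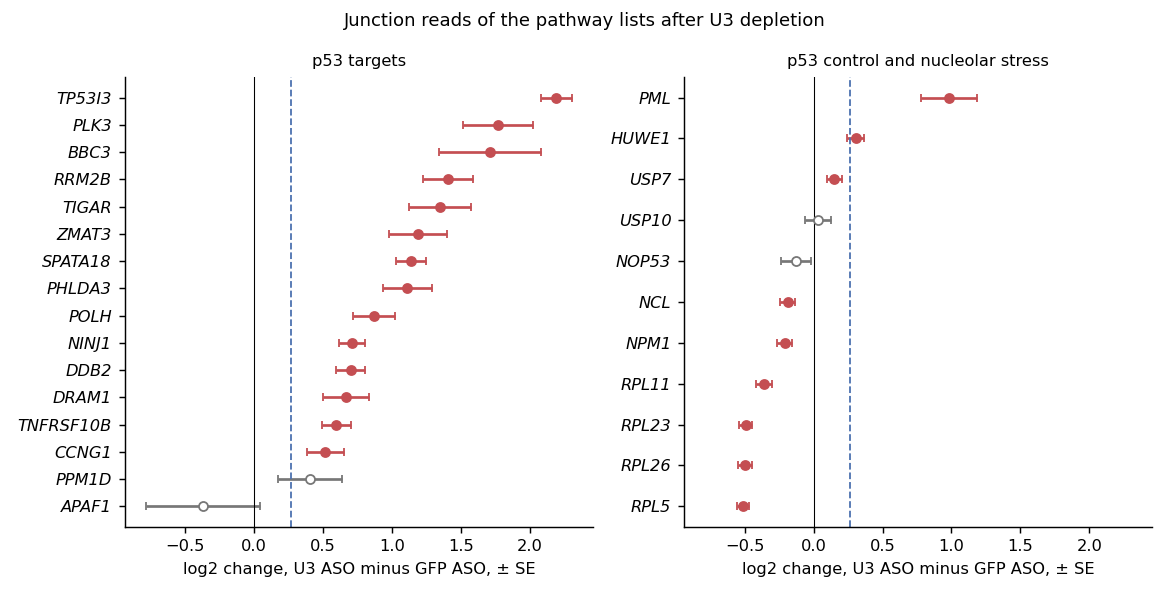
Log2 change in JPM between U3 ASO and GFP ASO (x axis, ± SE) for the tested genes of 2 lists; filled red points have an adjusted p under 0.1 and the dashed line is the median over all genes, 0.26. Of the 16 p53 targets 14 are filled and lie to the right of 0, whereas the 4 ribosomal protein genes, NPM1 and NCL are filled on its left.

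After depletion of FUBP1, FDXR was the only one of the 6 testable members that was called. It rose from 43.8, 48.1 and 32.5 JPM in siCtrl2 to 71.3, 58.1 and 79.8 in siFUBP1. The groups did not overlap, and the ratio was 1.68 (log2 change 0.75 ± 0.22, limma adjusted p = 0.0403). The call was lost without the third siCtrl2 library (adjusted p = 0.152), the first siFUBP1 library (0.102) or the third siFUBP1 library (0.148). Of the 6 tested genes 1 was thus higher and none was lower, where 6.57% of 5845 genes rose and 7.36% fell. The hepatocyte markers moved in both directions in the same libraries, with APOB higher (ratio 1.33, limma adjusted p = 0.00116), AFP lower (0.822, adjusted p = 0.00868) and SERPINA1, read on an alternate contig of chromosome 14, lower (0.430, adjusted p = 0.0105), of 8 tested. The part of this in the FDXR value was not tested.

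MDM2 was read at 209, 185 and 145 JPM in siCtrl2 and at 220, 164 and 169 in siFUBP1, with a log2 change of 0.039 ± 0.16 (adjusted p = 0.917). The groups overlapped almost entirely. MDM4 (log2 change -0.12 ± 0.23), BAX (0.28 ± 0.30), SESN1 (-0.40 ± 0.35) and TP53INP1 (-0.50 ± 0.57) did not pass either. XPC, FAS and CDKN1A fell short of the read minimum, and no test was made of their totals. The only tested event of XPC held 31, 29 and 10 reads in siCtrl2 and 3, 3 and 7 in siFUBP1, without overlap, or 6.82 and 1.46 JPM on average. FAS held 4, 19 and 13 reads against 4, 14 and 22, and CDKN1A 0 to 4 per library. Among the p53 targets 11 were tested, with PLK3 higher (log2 change 0.94 ± 0.31, adjusted p = 0.0697), CCNG1 lower (-0.31 ± 0.11, adjusted p = 0.0827) and a median of 0.20 beside -0.039 over all genes. Of the 10 tested genes that control p53, NPM1 was lower (-0.18 ± 0.06, adjusted p = 0.0816) and none was higher. With median-of-ratios scaling neither CCNG1 nor NPM1 was called.

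After depletion of FBL 3 of the 9 genes could be tested in the input RNA, and none passed. MDM2 was read at 243 and 134 JPM in siCtrl input and at 216 and 307 in siFBL input. These overlapping values gave a log2 change of 0.51 ± 0.32 (limma adjusted p = 0.495), which ran from 0.085 to 0.94 when 1 library at a time was left out. BAX was read at 68.3 and 63.7 against 59.9 and 57.7 (log2 change -0.16 ± 0.46), and MDM4 at 28.9 and 28.5 against 43.1 and 14.2 (-0.21 ± 0.82). None of the 3 had an unadjusted p under 0.05. At an adjusted p under 0.1, where none of the 3 passed, 0.879% of 2618 genes rose and 3.4% fell. Of the p53 targets 7 were tested and 0 were called by limma, with a median log2 change of -0.88 beside -0.18 over all genes. Of the 8 genes tested that control p53, NPM1, RPL26 and TRIM28 fell; with median-of-ratios scaling none of the 8 was called. The hepatocyte markers AFP (ratio 1.38), APOB (1.11) and SERPINA1 (2.61) rose and none of 8 fell, 5 being higher with median-of-ratios scaling; their part in these values was not tested. The siFBL comparison had the shallowest libraries and 2 of them a group. Of the other 6 genes 4 had no listed event, and TP53INP1 and XPC fell short of the read minimum. A change of these 6 genes was not detectable at this depth.

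**Figure D3:**
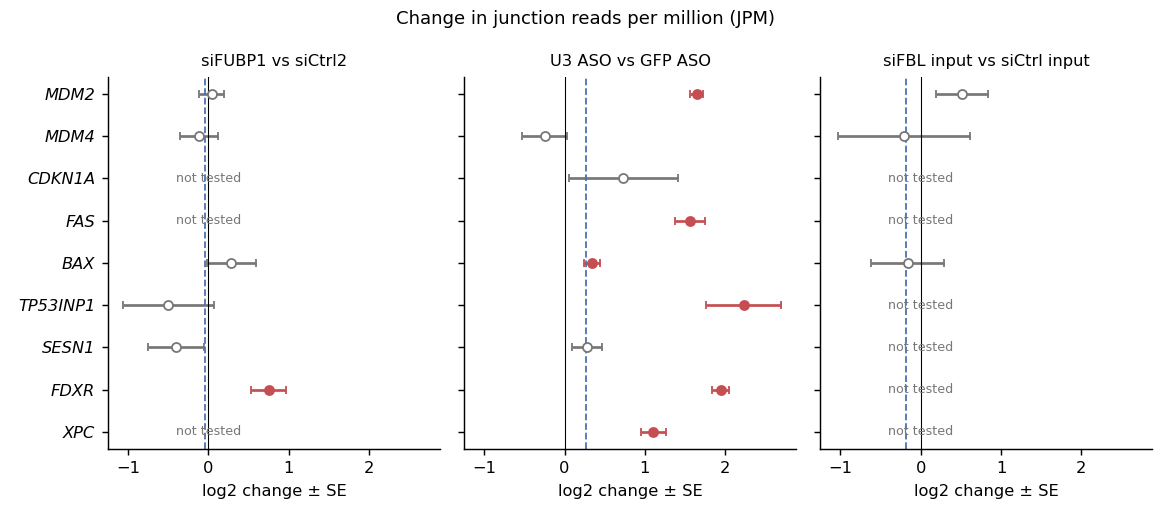
Log2 change in JPM (x axis, ± SE) of the 9 genes in the 3 comparisons; filled red points have an adjusted p under 0.1, open points do not, and the dashed line is the median over all genes of that comparison. The U3 panel has 6 filled points, the siFUBP1 panel 1 (FDXR) and the siFBL panel none.

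The second question was whether exons of these genes were included at another rate. The inclusion level of an exon is the share of transcripts with it, from 0 to 1, computed per library from the inclusion and skipping reads and scaled by the length of each form. No event of the 9 genes was called in any comparison. After U3 depletion 36 of the 43 events, in 8 genes, had at least 10 reads per library; 0 were called at an adjusted p under 0.1 by the quasi-binomial test, where 0.226% of 30109 events were, and 1 of the 36 had an unadjusted p under 0.05, where 4.13% of all did. After FUBP1 depletion 15 of 18 events in 8 genes were tested and 0 were called (background 0.197% of 16213), with 0 at an unadjusted p under 0.05 (background 4.59%). After FBL depletion 8 of 11 events in 4 genes were tested, 0 were called (background 0.0%) and 0 had an unadjusted p under 0.05 (background 2.25% of 5208). With limma on the log2 odds 0 member events were called in each comparison, and 5, 2 and 1 had an unadjusted p under 0.05 after U3, FUBP1 and FBL depletion. Among all events that model called 0 after U3 depletion and 2 after FUBP1 depletion, so the absence of member calls says little. Its share of all events with an unadjusted p under 0.05 was not recorded, so the member counts have no background.

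Most member events showed near full inclusion. In the U3 comparison 27 of the 36 tested events had a mean level above 0.95, 1 lay below 0.05 and 8 lay between. The median change was -0.0044, beside -0.0036 over all tested events. The 36 events concern 28 exons, since several share an exon with other neighbours. Taken by its most read event, each of 20 of these 28 exons had a mean level above 0.95, and 13 of the 28 keep the reading frame when left out.

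The event with the smallest p-value was the FDXR exon of 85 bases printed above (chr17:74864480-74864564). The GFP ASO libraries held 207, 243 and 377 inclusion reads and 0 skipping reads each, while the U3 ASO libraries held 920, 849 and 1105 inclusion reads and 21, 14 and 32 skipping reads. The level went from 1.000 in every control library to 0.966 ± 0.009 (SD, n = 3), a change of -0.034. The quasi-binomial test gave an unadjusted p of 0.0314 and an adjusted p of 0.845 across all events. In the pooled reads the skipping share was 2.28% (exact 95% interval 1.77 to 2.88%, counting error only) with U3 ASO, and 0 of 827 reads with GFP ASO, which allows a share of up to 0.363%. Another FDXR exon, of 172 bases, had 2, 7 and 0 skipping reads beside 1020, 1016 and 1141 inclusion reads in the U3 ASO libraries, and a change of -0.0037 (adjusted p = 0.846). In the siFUBP1 comparison the most read FDXR exon, of 108 bases, stood at 1.000 in every library apart from the second siFUBP1 library (0.958). Among the wider p53 targets 1 of 58 tested events was called in the U3 comparison, where 0.226% of all 30109 events were. It was an exon of TP53I3 of 197 bases (chr2:24079444-24079640). Its level rose from 0.832, 0.855 and 0.890 to 0.972, 0.978 and 0.973, without overlap (change 0.115, quasi-binomial adjusted p = 0.0848). With limma on the log2 odds this exon was not called, since that model called 0 events in the U3 comparison.

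MDM4 was read in both forms at its 68-base exon. This exon, printed above (chr1:204537430-204537497), had levels of 0.478, 0.705 and 0.407 in the GFP ASO libraries and of 0.386, 0.462 and 0.220 in the U3 ASO libraries. The means were 0.530 ± 0.155 and 0.356 ± 0.124 (SD, n = 3), and the groups overlapped (adjusted p = 0.845). They rest on 223 reads in all with GFP ASO and 139 with U3 ASO. After FUBP1 depletion the same exon had levels of 0.141, 0.157 and 0.081 in siCtrl2 and of 0.056, 0.201 and 0.084 in siFUBP1, so that skipping prevailed in all 6 libraries of that comparison. In the siFBL comparison it had levels of 0.478 and 0 in siCtrl input and of 0.507 and 0.256 in siFBL input, on 11.8 reads per library. The most read MDM4 event there was the exon of 150 bases (exon 9), with 13.5 reads per library. The first siCtrl input library held 4 inclusion and 7 skipping reads and the second none, while the siFBL input libraries held 33 and 10 inclusion reads and no skipping read (change 0.778 against that 1 control library, unadjusted p = 0.0903, adjusted p = 0.874 by the quasi-binomial test). With siCtrl2 and siFUBP1 the most read MDM4 exon, exon 4 of 134 bases, stood at 0.974 ± 0.044 and at 1.000 in every library. A shorter form of the 68-base exon, with 39 bases, uses a later start and keeps the frame. It had levels of 0, 0.128 and 0.092 in siCtrl2 and of 0, 0.019 and 0 in siFUBP1. That was a mean change of -0.067 (adjusted p = 0.812). In the U3 comparison the short form stood at 0.217 ± 0.122 and 0.219 ± 0.171 (SD, n = 3).

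MDM2 exon 4, of 134 bases (chr12:68816812-68816945), is coding and shifts the frame when left out. Its levels were 1.000, 0.853 and 0.987 with GFP ASO and 0.909, 0.926 and 0.924 with U3 ASO. The U3 ASO values fell between the control values, and the means of 0.946 ± 0.081 and 0.920 ± 0.010 (SD, n = 3) gave an adjusted p of 0.845. The exon was read 1109 times per library. With siCtrl2 and siFUBP1 its levels were 0.943 ± 0.049 and 0.938 ± 0.067 (SD, n = 3). The largest MDM2 event of that comparison, exon 8, stood at 1.000 in all libraries apart from the third siFUBP1 library (0.964). The largest event of MDM2 in the siFBL comparison, exon 8 of 161 bases (chr12:68828771-68828931), stood at 0.967 and 1.000 in siCtrl input and at 1.000 in both siFBL input libraries.

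The death genes were read at very different depth, with few control reads at FAS exon 3 and at TP53INP1 and many at BAX. FAS exon 3, of 138 bases (chr10:89007700-89007837), had levels of 0.300, 1.000 and 1.000 with GFP ASO and of 0.956, 0.986 and 0.900 with U3 ASO. A single control library, with 17 skipping reads beside 14 inclusion reads, held all skipping reads of its group (adjusted p = 0.845). In the siFUBP1 comparison the same exon stood at 1.000 in all libraries apart from the third siFUBP1 library (0.767), on 12.7 reads per library. FAS exon 4, of 109 bases, the most read of the gene in the U3 comparison, stood at 1.000 in all but the second U3 ASO library (0.971). FAS exon 6, of 63 bases, which encodes the membrane-spanning part and whose loss gives a soluble receptor, stood at 0.977 ± 0.039 with GFP ASO and 0.974 ± 0.035 with U3 ASO (SD, n = 3). The TP53INP1 exon of 38 bases, which lies outside the canonical transcript, had levels of 0, 0.835 and 0.637 with GFP ASO, on 67 reads in all. With U3 ASO, on 320 reads, it settled at 0.481, 0.463 and 0.470 (adjusted p = 0.845). Its levels were 0.330 ± 0.191 with siCtrl2 and 0.325 ± 0.164 with siFUBP1 (SD, n = 3), and 0.201 and 1.000 in siCtrl input against 1.000 and 0.262 in siFBL input. BAX exon 3, of 147 bases (chr19:48955687-48955833), is given by its most read event. It went from 1.000 in each GFP ASO library to 0.976, 1.000 and 0.970 with U3 ASO (quasi-binomial adjusted p = 0.845). After FUBP1 depletion it went from 0.829, 1.000 and 0.902 to 1.000 in each library (quasi-binomial adjusted p = 0.812). Neither change was called. Another U3 event of this exon, with a different upstream exon, had levels of 1.000, 1.000 and 0.978 with GFP ASO. With U3 ASO these were 1.000, 0.969 and 0.978, also uncalled. In the siFBL comparison the most read BAX exon, exon 2 of 52 bases, had levels of 0.912 and 1.000 in siCtrl input and of 0.949 and 0.912 in siFBL input.

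XPC and SESN1 showed no called change. The XPC exon of 155 bases (chr3:14153879-14154033), which no GENCODE transcript holds with these ends, had levels of 0.273, 0 and 0.104 with GFP ASO and of 0.071, 0.211 and 0.221 with U3 ASO, with overlap (adjusted p = 0.845). Its use stayed low while total XPC reads rose. In siCtrl2 it was skipped in all 70 reads, and in siFUBP1 its levels were 0.500, 0 and 0 on 3, 3 and 7 reads. SESN1 exon 5, of 243 bases (chr6:108998513-108998755), stood at 1.000 in every GFP ASO library and at 1.000, 0.962 and 1.000 with U3 ASO. With siCtrl2 and siFUBP1 its level was 1.000 in all libraries apart from the second siCtrl2 library (0.837). XPC exon 7, of 121 bases, the most read of that gene in the U3 comparison, stood at 1.000 in all libraries apart from the third U3 ASO library (0.977).

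**Figure D4:**
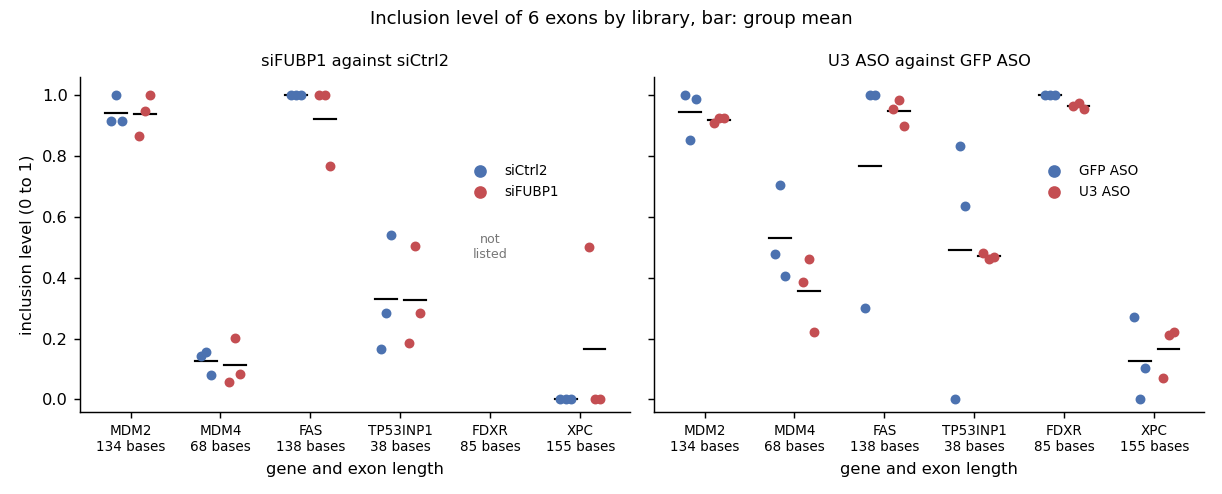
Inclusion level (y axis, 0 to 1) of 6 exons, named by gene and length, in each library of the siFUBP1 and U3 comparisons; points are libraries and bars are group means. The groups overlap for each exon apart from the FDXR exon with U3 ASO, where all 3 levels lie between 0.957 and 0.975 against 1.000 in the control libraries.

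The quasi-binomial test allowed for more variation between libraries than binomial sampling gives. The median factor was 5.62 in the siFUBP1, 7.02 in the U3 and 9.49 in the siFBL comparison. Each event's factor came from a trend over events with information of at least 5. Events below that limit took the trend's end value. The spread between an event's own biological replicates was given no weight of its own in its p-value.

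The third question was how strongly the RNAs of these genes were enriched in FUBP1 RIP, and whether FBL depletion altered this enrichment. Enrichment is the log2 ratio of FUBP1 RIP over input that the authors computed from 2 libraries each, with its standard error. All 9 genes could be tested. The RNAs fell into an enriched and a depleted set in siCtrl cells. TP53INP1 (3.73 ± 0.09 SE), MDM2 (3.14 ± 0.05), MDM4 (2.19 ± 0.14), FAS (1.73 ± 0.15) and SESN1 (1.48 ± 0.17) were enriched. XPC (-0.19 ± 0.15) lay near the input level, and CDKN1A (-1.64 ± 0.12), BAX (-2.78 ± 0.23) and FDXR (-3.27 ± 0.20) were depleted. The median over all 14242 genes tested was 0.080. TP53INP1 stood at percentile 97.4 of all genes, MDM2 at 94.3 and FDXR at 5.29.

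After FBL depletion the order of the 9 genes changed at a single place, where FAS passed MDM4. Enrichment of the p53 inhibitors fell: MDM2 from 3.14 to 2.65, a difference of -0.49 ± 0.06 (combined SE, adjusted p = 5.46e-15 from a normal test across 14242 genes), and MDM4 from 2.19 to 1.52, a difference of -0.67 ± 0.19 (adjusted p = 0.0101). TP53INP1 fell from 3.73 to 3.32 (-0.41 ± 0.14, adjusted p = 0.048). These 3 of the 9 genes were called lower and none was called higher, where 6.64% of all genes were lower and 5.36% were higher. The median difference over all genes was -0.0025. All 3 RNAs remained enriched in siFBL cells. Among all genes MDM2 went from percentile 94.3 to 92.6, MDM4 from 84.0 to 76.2 and TP53INP1 from 97.4 to 97.0. Whether these 3 RNAs fell more than other RNAs of like enrichment was not tested.

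The other 6 genes were not called. FAS went from 1.73 to 2.29 (0.56 ± 0.22, adjusted p = 0.106), and FDXR from -3.27 to -2.73 (0.54 ± 0.27, adjusted p = 0.251). FAS passed when the minimum mean count was raised to 50 (adjusted p = 0.0912). BAX (0.39 ± 0.32), XPC (0.15 ± 0.20), CDKN1A (-0.073 ± 0.16) and SESN1 (-0.32 ± 0.27) changed by less than 2 standard errors. The smallest standard error was that of MDM2.

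The p53 target list had 26 tested genes, with a median enrichment of 0.38 in siCtrl and 0.43 in siFBL cells and a median difference of -0.079. Of these, ZMAT3 (-0.55 ± 0.14), APAF1 (-0.41 ± 0.15), CCNG1 (-0.36 ± 0.14) and PERP (-0.35 ± 0.11) were lower, and GDF15 (0.25 ± 0.07) was higher. ZMAT3, an RNA-binding protein, had an enrichment of 3.35 in siCtrl cells, PERP 2.90, APAF1 3.14, CCNG1 1.27 and GDF15 -1.81. All 15 genes that control p53 were tested. HUWE1 (0.51 ± 0.08), TRIM28 (0.53 ± 0.14) and NCL (0.33 ± 0.05) were higher from negative values in siCtrl cells, and MYC (-0.20 ± 0.07) was lower. Of the 9 hepatocyte markers 7 were higher and none lower, with a median difference of 0.20 and a median enrichment of -1.37 in siCtrl cells, and of 4 tested markers of other cell types CD74 was higher (0.50 ± 0.11); the part of this in the values above was not tested.

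**Figure D5:**
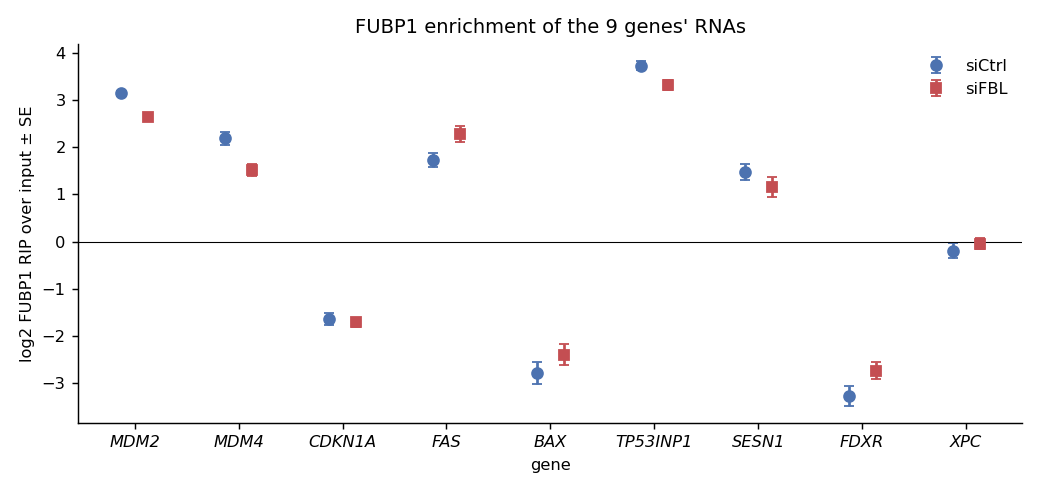
FUBP1 enrichment (log2 RIP over input, y axis, ± SE) of the 9 genes in siCtrl (circles) and siFBL (squares) cells. MDM2, MDM4, FAS, TP53INP1 and SESN1 lie above 1 in both, CDKN1A, BAX and FDXR lie below -1, and the squares of MDM2, MDM4 and TP53INP1 lie 0.41 to 0.67 under their circles.

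For FDXR and MDM2, a pair chosen after its values were seen, enrichment in FUBP1 RIP and RNA level are set side by side. FDXR, whose RNA was depleted in the FUBP1 RIP (-3.27), was read 1.68 times as often after FUBP1 depletion, a call that was lost without some single libraries. MDM2, at an enrichment of 3.14, had a ratio of 1.03. The other tested members were not called. BAX, at an enrichment of -2.78, had a log2 change of 0.28. TP53INP1 (3.73), MDM4 (2.19) and SESN1 (1.48) had log2 changes of -0.50, -0.12 and -0.40. A relation of enrichment to RNA level was not tested. After U3 depletion FDXR and MDM2 had ratios of 3.82 and 3.11.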

How the data were processed

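The authors trimmed adapters with Cutadapt, aligned reads to hg38 with HISAT2 and counted skipped exon events with rMATS (versions not given in the sources used here). The deposited event tables hold inclusion and skipping junction counts as lists with 1 whole number per library; their positions name libraries here. Another 6 columns of levels per library and the authors' p-values and differences in level were not used. The library kit marks strand, but the counting setting is not given. For RIP, the authors counted reads per gene (HTSeq in the methods, featureCounts in the processing notes) and compared RIP with input by DESeq2. From that deposited table came the log2 ratio, its standard error and the mean normalized count, used as a score (how many libraries this mean covers is not given in the sources used here); its p-values were not used.

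The members, lists, tests and limits were chosen with earlier results of these data known. Groups followed the labels; no 2 libraries were identical. For exon inclusion, events read on average 10 times or more in a library entered a quasi-binomial F test. Its dispersion was a trend fitted with limma 3.58.1 (R 4.3.3) on events with information of at least 5. The prior degrees of freedom came out infinite, so the trend value was used for every event in place of its own dispersion. Gene totals (at least 20 reads per library) were tested by limma with a variance trend on log2 of reads per 1000000 plus 0.5, a scale that understates changes of low genes. Enrichment (mean count of at least 10 in both tables) was compared by the difference over the combined standard error, a normal test. All p-values are two-sided, were adjusted by Benjamini-Hochberg over all events or genes, and were called under 0.1. Reported genes were the 9 members and the called genes of 4 lists, and reported events those with p under 0.05, the most read event of a gene, and those read at least 50 times per library with levels from 0.05 to 0.95; further member events were chosen after their values were seen. From the p53 control list 1 gene is not reported here and was left out of the list's counts. The tests were checked on simulated data. Alternatives were other read minimums, pseudocounts, scalings and event models, and leaving out each library. GENCODE 44 gave exons. Intervals and limits of 0 cover counting error only.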

Additional observations from a re-analysis of the deposited data

How the results depend on the processing

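Of 295 values recomputed under an alternative (counts of called members, and the changes of single members), 277 kept their direction and their side of the threshold or stayed within 1.5 times the main count. Counts of called member events were 0 under every alternative in all 3 comparisons. Over all events the alternatives called 0 to 66 after U3 depletion and 2 to 52 after FUBP1 depletion. With so few calls among all events, a member count of 0 says little about stability. Leaving out 1 library at a time gave 0 to 1 called members after FUBP1 depletion, 6 to 7 after U3 depletion and 0 after FBL depletion. In that same procedure the log2 change of MDM2 after FUBP1 depletion ran from -0.11 to 0.15, that of MDM4 from -0.27 to 0.037, and that of MDM4 after FBL depletion from -0.99 to 0.58; none of these was called. Other uncalled changes moved by over 1.5 times without turning: BAX (0.029 to 0.48), SESN1 (-0.72 to -0.10) and TP53INP1 (-0.86 to -0.22) after FUBP1 depletion, CDKN1A (0.44 to 1.33), MDM4 (-0.45 to -0.076) and SESN1 (0.15 to 0.46) after U3 depletion, and MDM2 (0.085 to 0.94) after FBL depletion. With median-of-ratios scaling BAX turned to 0.017 after FBL depletion, uncalled as before. The cause of these changes was not tested. Over all genes, leaving out a siFBL input library left 3 and 7 genes called in place of 112. No paired analysis was possible because the positions in the deposited lists carry no replicate number and the RIP table holds no value per library. Reads below the minimum left CDKN1A, FAS and XPC without a test of their totals after FUBP1 depletion. After FBL depletion they left TP53INP1 and XPC without a test, and another 4 of the 9 genes had no listed event.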
